A study of Mus musculus with 24 samples.

Results

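The mitochondrial ribosomal protein genes are the nuclear genes whose symbols begin with Mrpl (large subunit) or Mrps (small subunit) followed by a number. Of the 24421 genes in the deposited count table, 77 carried such a symbol once names ending in -ps and a number were left out, 48 of the large and 29 of the small subunit. RNA came from CD8 and CD4 T cells that were sorted from the bone marrow of female CByB6F1 mice, 2 to 5 months old, with immune-mediated bone marrow failure (BMF), a state in which T cells destroy blood-forming cells. The mice were untreated or had received cyclosporine (CSA, a calcineurin inhibitor), ruxolitinib at low dose (RUX, an inhibitor of the kinases JAK1 and JAK2) or both drugs (RUX+CSA). There were 8 groups, each cell type under each treatment, with 3 libraries a group and 24 in all. Each library held sorted cells pooled from 2 to 3 mice of 1 group, so a p-value measures the spread between pools. All 8 groups carried BMF, no group of healthy mice was analysed here, and drug doses and the way BMF was induced are not given in the sources used here.

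Mitochondria keep their own ribosome, which translates the few messenger RNAs of the mitochondrial genome, all of which encode subunits of the respiratory chain and ATP synthase. Its RNAs come from mitochondrial DNA, whereas all of its proteins are made in the cytosol from nuclear genes and imported. The large subunit joins amino acids and is held to the inner membrane, and the small subunit reads the messenger RNA. Many of the proteins have bacterial counterparts, and others are found only in mitochondrial ribosomes. T cells are known to enlarge their mitochondria and raise mitochondrial translation when they are activated. Symbols do not always match position in the particle: in structures, Mrps18a and Mrps30 sit in the large subunit, and Mrps36 is now known as a part of the 2-oxoglutarate dehydrogenase complex.

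Some promoter motifs, which the choice of genes did not use, were more common among the members than among tested genes, though most windows held none of these. RefSeq promoter windows (build GRCm38.p6, the assembly also named mm10), each running from 250 bases before to 50 bases after a transcription start, were found for 68 of the 77 genes and gave 74 windows. Each window was searched on both strands for GCATGCGC, the core of the site of NRF1 (a factor known for driving nuclear genes of mitochondrial proteins), for CCGGAAGT, a site of ETS factors that include the GA-binding protein GABP, for AAGATGGCG, a site of YY1, and for the E-box CACGTG, which MYC and other factors bind. No motif searched is contained in another, and a match describes letters and not a bound factor. The NRF1 letters stood in 10.8% of members' windows, against 5.0% of the 12929 windows of genes tested here and 2.71% of all 32851 windows. The ETS letters stood in 16.2% against 7.72% and 3.89%, and the YY1 letters in 10.8% against 2.84% and 1.4%. The E-box stood in 9.5% of members' windows against 9.69% and 7.15%. At least 1 of the NRF1, ETS and YY1 motifs was found in 26 of the members' 74 windows (35.1%), against 14.55% of the windows of tested genes.

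Promoter windows of 5 members are shown because these genes changed under RUX+CSA, in CD8 cells for Mrpl43, Mrpl33, Mrps24 and Mrps18b and in CD4 cells for Mrps22, and because each holds 1 or 2 of the motifs. Capitals mark a motif match on either strand. The windows are Mrpl43 at chr19:45006393-45006692 on the minus strand, Mrpl33 at chr5:31613701-31614000 on the plus strand, Mrps24 at chr11:5707652-5707951 on the minus strand, Mrps18b at chr17:35916391-35916690 on the minus strand and Mrps22 at chr9:98601630-98601929 on the minus strand. Each is written 5′ to 3′ on the strand of its gene.
Mrpl43: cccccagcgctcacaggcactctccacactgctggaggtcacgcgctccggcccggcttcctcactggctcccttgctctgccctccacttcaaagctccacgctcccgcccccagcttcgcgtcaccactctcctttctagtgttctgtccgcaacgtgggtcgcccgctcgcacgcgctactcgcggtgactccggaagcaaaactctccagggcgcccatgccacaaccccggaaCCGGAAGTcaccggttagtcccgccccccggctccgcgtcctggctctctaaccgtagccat
Mrpl33: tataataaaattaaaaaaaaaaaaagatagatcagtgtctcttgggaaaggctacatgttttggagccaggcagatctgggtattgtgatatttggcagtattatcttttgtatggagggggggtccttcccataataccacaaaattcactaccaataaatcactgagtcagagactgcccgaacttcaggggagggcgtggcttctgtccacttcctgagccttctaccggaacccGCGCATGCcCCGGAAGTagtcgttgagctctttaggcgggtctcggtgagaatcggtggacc
Mrps24: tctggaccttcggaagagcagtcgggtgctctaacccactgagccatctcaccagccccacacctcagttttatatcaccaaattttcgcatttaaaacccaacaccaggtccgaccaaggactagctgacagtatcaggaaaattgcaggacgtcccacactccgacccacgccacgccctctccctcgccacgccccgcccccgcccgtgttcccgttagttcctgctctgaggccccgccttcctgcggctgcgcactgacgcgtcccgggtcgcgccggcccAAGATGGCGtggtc
Mrps18b: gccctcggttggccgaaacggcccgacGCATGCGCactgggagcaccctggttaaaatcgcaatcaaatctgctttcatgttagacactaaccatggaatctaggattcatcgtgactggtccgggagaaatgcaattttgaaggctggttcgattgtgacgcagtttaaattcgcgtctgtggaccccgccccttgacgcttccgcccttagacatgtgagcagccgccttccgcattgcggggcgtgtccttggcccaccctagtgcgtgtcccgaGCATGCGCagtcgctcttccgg
Mrps22: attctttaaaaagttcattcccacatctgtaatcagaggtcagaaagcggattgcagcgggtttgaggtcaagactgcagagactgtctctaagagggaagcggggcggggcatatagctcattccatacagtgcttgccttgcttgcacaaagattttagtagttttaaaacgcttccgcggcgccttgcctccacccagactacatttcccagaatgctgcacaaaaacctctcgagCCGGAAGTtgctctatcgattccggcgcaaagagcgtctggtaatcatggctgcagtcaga
The windows of Mrpl43 and Mrps22 hold the ETS letters, that of Mrps24 the YY1 letters, that of Mrps18b the NRF1 letters at 2 places, and that of Mrpl33 both the NRF1 and the ETS letters. Because these windows were chosen for holding a motif, they cannot show whether the motifs go with a rise or a fall. Of the other members that rose in CD8 cells, Mrpl9 has the NRF1 letters and Mrpl20 the E-box in its window. The windows of Mrpl55 and Mrpl57 hold none of the motifs.

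Divergent neighbours were also common. For 27 of the 77 members (35.1%) another gene began on the opposite strand within 1000 bases upstream, or overlapping the start by up to 100 bases, against 14.4% of 13461 tested genes. Mrpl46 and Mrps11 are each other's neighbour, with 42 bases between their starts, so a large and a small subunit gene share 1 intergenic stretch. Mrpl43 lies 116 bases from Peo1 (which encodes the helicase of mitochondrial DNA), Mrpl47 lies 308 bases from Ndufb5 (a subunit of respiratory complex I), and Mrps12 lies 187 bases from Sars2 (the seryl-tRNA synthetase of mitochondria).

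The libraries held 16912085 to 34550183 counted read pairs, of which the members took 0.285% to 0.352%. The sort markers followed the labels: Cd8a and Cd8b1 summed to 2070 to 2840 counts per mega read pairs (CPM) in the CD8 libraries and to 9.87 to 27.7 in the CD4 libraries, and Cd4 lay between 0.403 and 1.16 CPM in CD8 and between 1170 and 1720 CPM in CD4. Markers of other marrow cells were also present and differed between groups, and values stand beside the main results. Because each library is a bulk sample, fewer cells of a type and less RNA per cell cannot be told apart.

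All 77 members were expressed well above the counting limit in every library, with a lowest count of 144 for Mrpl47. Per length, as CPM per kb of exon bases, their mean level over the 24 libraries ran from 3.7 for Mrps25 to 190.9 for Mrpl33, and the median was 31.5 against 8.78 for all 13476 genes tested over both cell types. The 5 members with the highest level per length were Mrpl33 at 190.9 ± 31.8 (SD, n = 24), Mrpl18 at 123.8, Mrpl42 at 117.4, Mrps16 at 112.2 and Mrps18c at 106.5 CPM per kb. The 5 lowest were Mrpl19 at 9.13, Mrpl11 at 8.96, Mrpl1 at 8.32, Mrpl17 at 6.15 and Mrps25 at 3.7 CPM per kb. Mrpl33, Mrpl18, Mrps16 and Mrpl1 belong to families with bacterial counterparts, whereas Mrpl42 does not. Genes with long or overlapped exons stand too low on this scale, since it counts the exon bases of all isoforms and pairs that fall on 2 genes may be dropped: 58.3% of the exon bases of Mrps25 are shared with Nr2c2, 41.4% of those of Mrpl41 with Dph7, 37.4% of those of Mrpl24 with Rrnad1 and 22.9% of those of Mrpl19 with Gcfc2.

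**Figure D1:**
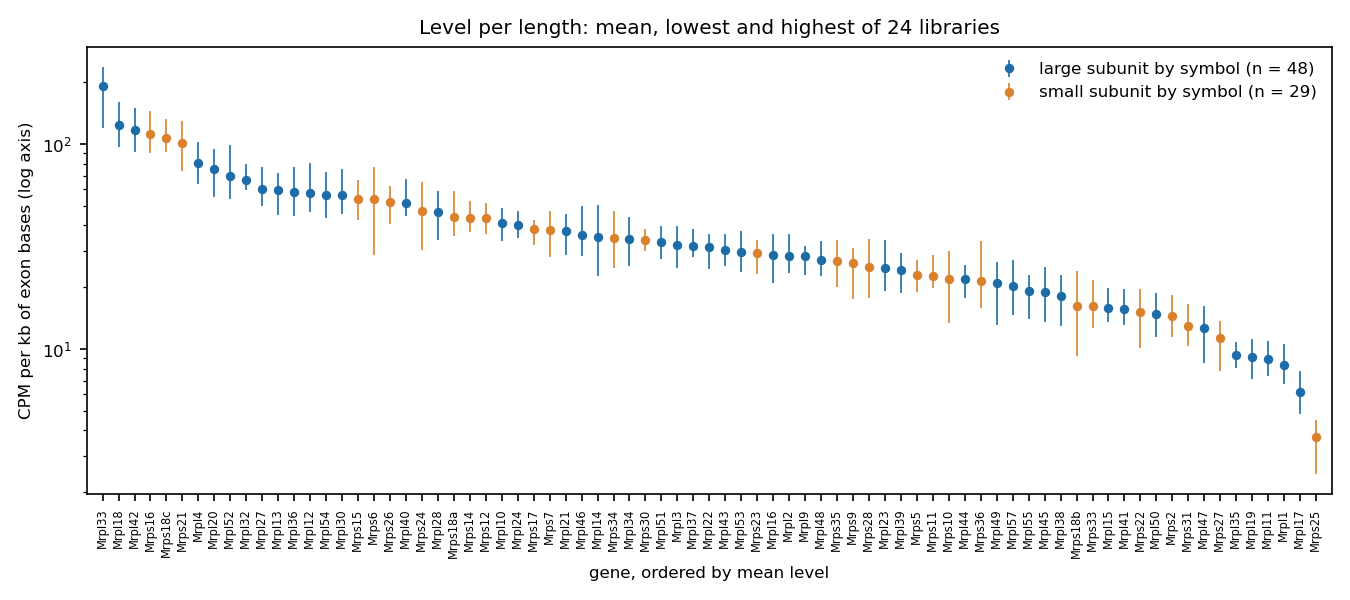
Level per length of the 77 mitochondrial ribosomal protein genes (CPM per kb of exon bases, log axis), ordered by mean, with points at the mean and lines from the lowest to the highest of 24 libraries, coloured by subunit. Large and small subunit genes are spread over the whole order, from Mrpl33 at 190.9 to Mrps25 at 3.7.

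Large and small subunit genes did not sit at separate levels. The median level per length was 31.7 CPM per kb for the 48 large subunit genes (quartiles 20.0 and 56.2) and 29.3 for the 29 small subunit genes (quartiles 21.5 and 43.8), and it was 31.97 and 28.03 when Mrps18a and Mrps30 were counted with the large subunit and Mrps36 was left out. The summed CPM of the large subunit genes was 1.88 to 2.01 times that of the small subunit genes in every library. That ratio was 1.91, 1.89 and 1.88 in the CD4 RUX+CSA pools, and these overlapped the CD4 RUX pools, at 1.89, 1.98 and 1.90, but lay below the CD4 untreated pools, at 1.97, 1.98 and 1.92, and below the CD4 CSA pools, at 2.00, 2.00 and 1.99. In CD8 the RUX+CSA pools (2.00, 1.96 and 1.96) overlapped the untreated pools (1.99, 1.95 and 1.99).

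The members varied little among groups. The ratio of the highest to the lowest group mean was 1.28 for the median member, against 1.41 for the 8363 tested genes that lie within the members' range of levels. Those genes share the range but were not matched in level, with a median of 18.3 CPM per kb against 31.5 for the members. The largest ratio of a member was 1.74 for Mrps18b, from 12.8 ± 2.91 CPM (SD, n = 3) in CD4 untreated to 22.4 ± 2.85 CPM in CD8 RUX+CSA. The members' median SD within groups was 0.153 on the log2 scale, against 0.166 in those 8363 genes. Mrpl51 had the smallest ratio, 1.09. Of the genes whose symbol does not match their place, Mrps36 had the second largest ratio, 1.67, from CD4 untreated to CD8 RUX+CSA, and Mrps30 ran from 48 to 61.1 CPM over the 24 libraries. Mrps18a ran from 30.6 CPM in a CD4 untreated pool to 50.8 CPM in a CD8 RUX+CSA pool, and its relative Mrps18c from 45.7 to 66.0 CPM.

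Within libraries the members moved together. Relative to its own mean over the 24 libraries, the median member stood at log2 values of 0.24, 0.15 and −0.03 in CD8 RUX+CSA pools 10, 11 and 12, and at 0.05, −0.15 and −0.11 in CD8 untreated pools 1, 2 and 3. Pools 10 and 11 stood above all untreated pools, and pool 12 fell among them. In pool 10, 72 of the 77 members were above their own mean, and in pool 2 only 7 were. Pools outside this comparison also stood away from 0, though none as far as pool 10: CD8 CSA pool 6 stood at 0.17 with 71 members above their mean, and CD4 RUX pools 20 and 21 stood at 0.15 and −0.15, in the same group. Cytosolic ribosomal proteins had medians of 0.25, 0.16 and −0.10 and respiratory chain subunits of 0.29, 0.14 and −0.08 in CD8 RUX+CSA pools 10, 11 and 12.

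**Figure D2:**
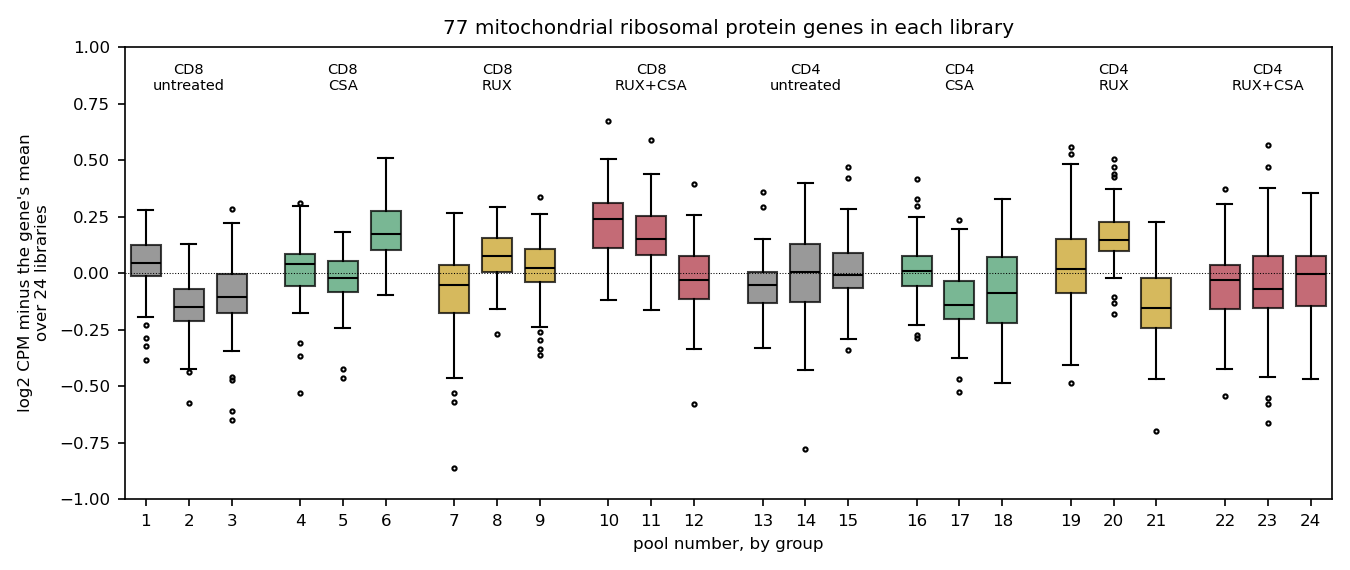
Log2 CPM of each of the 77 members minus its own mean over 24 libraries, as 1 box per library (line at the median, box over the quartiles, whiskers to 1.5 times the box, points beyond), by group and pool number. CD8 RUX+CSA pools 10 and 11, CD8 CSA pool 6 and CD4 RUX pool 20 stand high, and CD8 untreated pool 2 and CD4 RUX pool 21 stand low.

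In CD8 cells under RUX+CSA, the RNA of most members stood slightly higher than in untreated cells. Against untreated CD8 cells, 10 of the 77 members passed the test and all 10 were higher (13.0% of the members, against 15.7% of the 12684 genes tested). The test was edgeR's quasi-likelihood test with Benjamini-Hochberg adjustment over all genes tested and a threshold of 0.05, and the share of members was near that of all genes. In direction, 69 of 77 had a log2 fold change above 0, with a median of 0.18 against −0.02 over all genes, and of the 1988 genes that passed, 1007 were higher and 981 lower. Of the 10 members, 8 were of the large subunit (median log2 fold change of all 48, 0.17) and 2 of the small (median of all 29, 0.19). All 3 RUX+CSA pools lay above all 3 untreated pools for 22 members (28.6%, against 21.1% of 13476 genes) and below them for none.

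Mrpl43, a large subunit protein with no bacterial counterpart, read from chr19:45005014-45006442 (mm10), gave the smallest p. It stood at 33.6, 31.1 and 33.4 CPM in untreated pools 1, 2 and 3 and at 44.0, 43.5 and 41.4 CPM in RUX+CSA pools 10, 11 and 12. Every RUX+CSA pool was above every untreated pool, pool 12 included, and above every CD8 pool given 1 drug, where Mrpl43 lay between 30.9 and 38.8 CPM. The log2 fold change was 0.38 ± 0.08 (SE) with an adjusted p of 0.0136. Mrpl33, of a bacterial family, showed the largest change of the members past the threshold, with 74.8, 65.3 and 55.9 CPM in untreated pools and 105, 94.5 and 78.9 CPM in RUX+CSA pools. Its groups did not overlap, the log2 fold change was 0.50 ± 0.13 and the adjusted p 0.0275, but the CD8 RUX+CSA pools did not go beyond the CD4 libraries, where Mrpl33 ran from 76.6 to 110 CPM. Mrpl43 lost the call without untreated pool 2 or RUX+CSA pool 10 (adjusted p up to 0.0576), and Mrpl33 without untreated pool 2 or 3 or RUX+CSA pool 10 or 11.

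In the small subunit, Mrps24 and Mrps18b rose. Mrps24, a protein of a bacterial family, had 43.2, 39.1 and 30.7 CPM in untreated and 56.1, 55.0 and 44.9 CPM in RUX+CSA pools, a log2 fold change of 0.45 ± 0.12 with an adjusted p of 0.0326. Mrps18b, which is 1 of 3 relatives of the bacterial S18 protein in mammals, had 18.1, 16.2 and 15.6 CPM in untreated and 19.7, 25.3 and 22.1 CPM in RUX+CSA pools, a log2 fold change of 0.41 ± 0.12 with an adjusted p of 0.0341. For both genes the groups did not overlap, though the lowest RUX+CSA pool of each lay close to the highest untreated pool. Of the relatives of Mrps18b, neither Mrps18a nor Mrps18c passed (adjusted p of 0.0714 for Mrps18a and 0.168 for Mrps18c). The other members that rose were Mrpl54, Mrpl57 and Mrpl55, which like Mrpl43 are known from mitochondrial ribosomes alone, and Mrpl15, Mrpl20 and Mrpl9, which have bacterial counterparts. Their log2 fold changes ran from 0.25 for Mrpl9 to 0.41 for Mrpl54, with adjusted p from 0.028 to 0.0486.

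**Figure D3:**
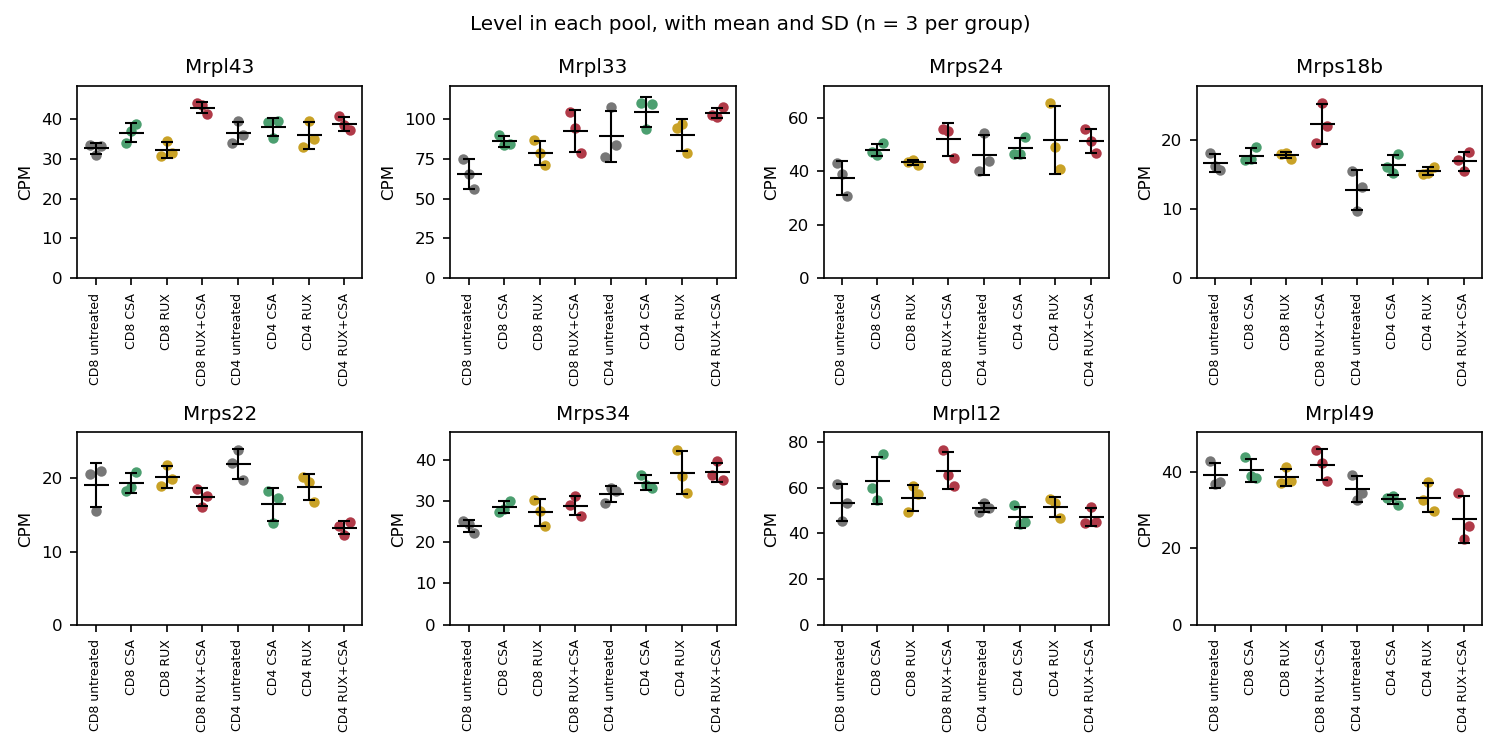
CPM in each of the 3 pools of the 8 groups for 8 members (points), with the mean (bar) and SD (whiskers), each axis starting at 0. Mrpl43 is highest in the CD8 RUX+CSA pools (41.4 to 44.0 CPM), Mrps22 is lowest in the CD4 RUX+CSA pools (12.3 to 14.0 CPM), and under each treatment every CD8 pool of Mrps34 is below every CD4 pool.

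The CD8 result rested on few pools. The count of 10 fell to 0 without untreated pool 2, to 1 without untreated pool 3, to 1 without RUX+CSA pool 10 and to 1 without pool 11, and it rose to 17 without RUX+CSA pool 12 and to 19 when CSA pool 6 and RUX pool 7 were left out of the fit. Markers of other marrow cells moved with the comparison. The 17 neutrophil markers in the table summed to 12.9 to 1560 CPM in untreated and to 4590 to 6160 CPM in RUX+CSA pools, all 17 had a log2 fold change above 0 and 4 passed. The 6 basophil and mast cell markers summed to 0.0806 to 1.06 against 47.2 to 78.6 CPM and all 6 passed. The 14 erythroid markers summed to 50 to 96.5 against 149 to 361 CPM with 7 of 10 tested higher, although Hba-a1, Hba-a2, Hbb-bs and Hbb-bt were at 0 in both groups. The 10 B cell markers summed to 2.4 to 3.73 against 7.77 to 50.5 CPM with 5 of 7 tested higher, and Ms4a1 and Pax5 were at 0 in the untreated pools. The summed macrophage markers overlapped, at 52.7 to 96.3 against 69.3 to 79.6 CPM, but 4 of 10 were lower and 1 higher, with a median log2 fold change of −1.46. The 6 NK cell markers summed to 32.2 to 43.7 against 98.5 to 121 CPM with 0 of 3 tested past the threshold, and the 6 stem and progenitor markers to 24.5 to 60.6 against 58.8 to 68.0 CPM with 2 of 4 tested higher. With the mean of the neutrophil, erythroid, B cell and macrophage markers as a covariate, 0 of the 77 members and 0 of all genes passed edgeR's test. The part of these cells in the members' change was not tested.

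In CD8 cells given 1 drug, no member passed against untreated cells. Under CSA 0% of all genes passed, and 11 members had an unadjusted p under 0.05 in edgeR, all of them higher, with 0 calls by DESeq2 and by limma voom. The share of all genes at that unadjusted cut is not given here for this or later comparisons. Counts at that cut are therefore not read as a result about the members. The smallest p belonged to Mrpl54, at 33.7, 35.9 and 41.0 CPM under CSA against 31.3, 26.4 and 29.5 CPM untreated, a log2 fold change of 0.34 ± 0.11 (adjusted p 0.439), followed by Mrpl33 at 0.40 ± 0.13 (adjusted p 0.439) and Mrpl55 at 0.32 ± 0.11 (adjusted p 0.444). All 3 CSA pools lay above all 3 untreated pools for 21 members (27.3%), against 8.56% of 13476 genes, and below for none, and 71 of 77 log2 fold changes were above 0 with a median of 0.10 against 0.01 over all genes. This lean was not particular to the members. It held for 75 of 78 respiratory chain subunits (median 0.19) and 76 of 83 cytosolic ribosomal proteins (median 0.11). Markers of other cells moved with the same groups: erythroid markers summed to 102 to 245 CPM under CSA against 50 to 96.5 CPM untreated, basophil and mast cell markers to 2.13 to 36.8 against 0.0806 to 1.06 CPM, and neutrophil markers to 911 to 3580 against 12.9 to 1560 CPM (17 of 17 above 0, none past the threshold). Their part was not tested. Under RUX 0% of all genes passed and 1 member, Mrps5, had an unadjusted p under 0.05, with 0 calls by DESeq2 and by voom. Mrps5, of a bacterial family, stood at 32.4, 38.4 and 39.0 CPM against 32.3, 29.2 and 31.9 CPM, a log2 fold change of 0.23 ± 0.09 (adjusted p 0.79), and Mrpl54 and Mrpl33 followed at 0.23 and 0.27. The median log2 fold change under RUX was 0.06. The comparisons of CSA, RUX and RUX+CSA with untreated cells share the same 3 untreated pools.

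Between treatments in CD8 cells, no member passed in edgeR. Under RUX+CSA against CSA (0.0788% of all genes passed), 3 members had an unadjusted p under 0.05, with 0 calls by DESeq2 and by voom. These were Mrps18b at 0.32 ± 0.11 on the log2 scale (adjusted p 0.284), Mrpl43 at 0.22 ± 0.08 (adjusted p 0.294) and Mrpl9 at 0.17 ± 0.08 (adjusted p 0.388). For Mrps18b the RUX+CSA pools (19.7, 25.3 and 22.1 CPM) lay above the CSA pools (17.1, 17.2 and 19.0 CPM). Against RUX (0% of all genes passed), 7 members had an unadjusted p under 0.05, all higher under RUX+CSA, with 1 call by DESeq2 and 0 by voom. Mrpl43 had 44.0, 43.5 and 41.4 CPM under RUX+CSA and 30.9, 34.7 and 31.5 CPM under RUX, a log2 fold change of 0.40 ± 0.08 with an adjusted p of 0.0733. Mrps18a (0.34 ± 0.11, adjusted p 0.177) and Mrpl57 (0.33 ± 0.11, adjusted p 0.191) followed. The medians over the 77 members were 0.06 against CSA and 0.12 against RUX.

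In CD4 cells under RUX+CSA the members lay about evenly above and below their untreated levels, and 1 small subunit gene fell. Of 77 members, 1 passed against untreated CD4 cells (1.30%, against 1.77% of the 13175 genes tested), 35 had a log2 fold change above 0 and the median was −0.03. That gene was Mrps22, a small subunit protein without a bacterial counterpart whose human gene is mutated in inherited mitochondrial disease, at chr9:98588730-98601679. It stood at 22.2, 23.9 and 19.8 CPM in untreated pools 13, 14 and 15 and at 13.4, 12.3 and 14.0 CPM in RUX+CSA pools 22, 23 and 24. The groups did not overlap, and no pool of the other 7 groups reached down to the RUX+CSA values except CD4 CSA pool 17 at 13.9 CPM. Mrps22 fell by 0.73 ± 0.17 on the log2 scale (adjusted p 0.0443), and the call was lost without any 1 of untreated pools 13 and 14 and RUX+CSA pools 22, 23 and 24 (adjusted p up to 0.134). It was also lost with the mean of the neutrophil, erythroid, B cell and macrophage markers as a covariate. In the CD4 RUX+CSA pools macrophage markers summed to 68.6 to 117 CPM against 259 to 755 CPM untreated (5 of 10 lower). Neutrophil markers summed to 8710 to 10800 against 97.0 to 9160 CPM (17 of 17 above 0, 0 past the threshold). Erythroid markers summed to 195 to 545 against 52.4 to 133 CPM (1 of 10 tested higher). B cell markers summed to 13.9 to 79.2 against 3.07 to 5.97 CPM (4 of 8 tested higher). Basophil and mast cell markers, which are not in that mean, summed to 76.9 to 145 against 0 to 6.79 CPM. The part of these cells was not tested. In CD8 cells under the same treatment Mrps22 stood at 18.6, 16.1 and 17.6 CPM against 20.6, 15.6 and 21.1 CPM.

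In the other comparisons within CD4 cells no member passed. Under CSA against untreated (1.48% of all genes passed), 0 members passed in edgeR, DESeq2 and voom, and 5 had an unadjusted p under 0.05, all lower. They were led by Mrps2 (−0.42 ± 0.14, adjusted p 0.156), Mrps27 (−0.39 ± 0.15, adjusted p 0.229) and Mrps22 (−0.42 ± 0.17, adjusted p 0.234), and the 3 are small subunit genes. Mrps2 stood at 24.4 ± 0.70 CPM (SD, n = 3) under CSA and at 32.6 ± 4.89 CPM untreated, and Mrps27, which carries pentatricopeptide repeats (an RNA-binding fold), at 17.7, 14.4 and 16.6 CPM against 22.9, 19.4 and 21.5 CPM. Under RUX against untreated, 0% of all genes passed and 0 members had an unadjusted p under 0.05 or passed by DESeq2 or voom. The smallest p belonged to Mrps2 (−0.25), Mrps34 (0.22) and Mrps10 (−0.28), each with an adjusted p of 1. Against CSA (0.281% of all genes passed) and against RUX (0.782%), RUX+CSA gave 0 members past the threshold by edgeR, DESeq2 and voom, with 3 at an unadjusted p under 0.05 in each. Against CSA these were Mrps6 (0.54 ± 0.16, adjusted p 0.248), Mrpl46 (0.40 ± 0.14) and Mrpl45 (0.32 ± 0.12), all higher, and 18.6% of the exon bases of Mrps6 are shared with Slc5a3. Against RUX they were Mrps22 (−0.51 ± 0.17, adjusted p 0.173), Mrpl1 (−0.35 ± 0.14) and Mrpl13 (−0.30 ± 0.13), all lower.

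The RUX+CSA effects in the cell types were set against each other in 1 fit over the 24 libraries. No member's difference of effects passed edgeR's test (0 of 77, against 0.0223% of the 13476 genes tested), and 0 passed by DESeq2 and by voom. In edgeR 14 members had an unadjusted p under 0.05, all with the higher effect in CD8. The share of all genes at that cut is not given here. The difference was above 0 for 69 of 77 members with a median of 0.20 on the log2 scale, against 0.03 over all genes, and its medians were 0.22 for the large and 0.15 for the small subunit. It was also above 0 for 69 of 79 respiratory chain subunits (median 0.20) and 70 of 83 cytosolic ribosomal proteins (median 0.15). Among the members, the smallest p belonged to Mrps22, with a difference of 0.60 ± 0.20 (adjusted p 0.201), followed by Mrpl9 (0.35 ± 0.13, adjusted p 0.261) and Mrpl47 (0.63 ± 0.24, adjusted p 0.267). So the rise of members in CD8 and its absence in CD4 were not shown to differ gene by gene.

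**Figure D4:**
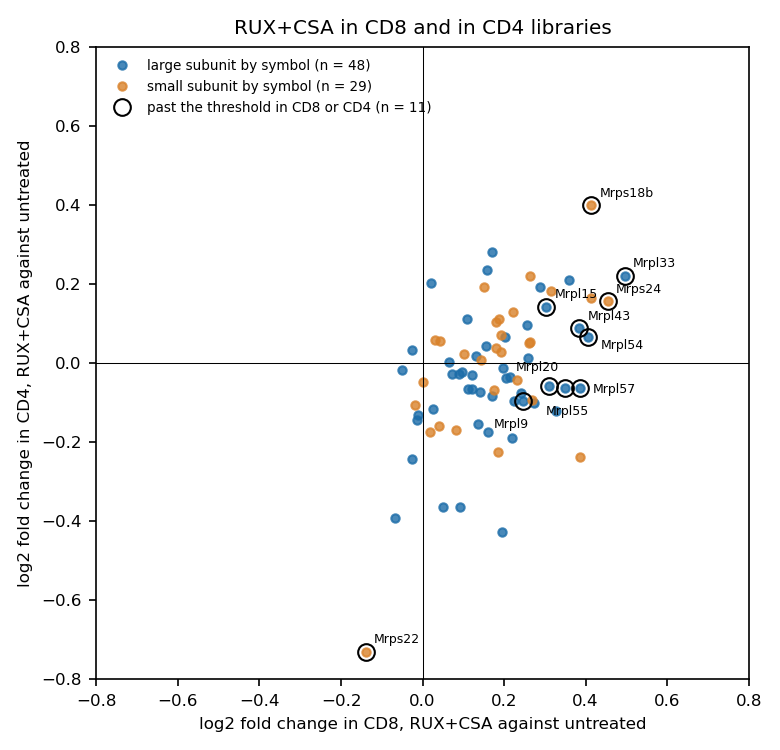
Log2 fold change of each member under RUX+CSA against untreated, in CD8 cells (x axis) and CD4 cells (y axis), coloured by subunit, with a ring around the 11 members past the threshold in either cell type. Most points lie right of 0 (69 of 77) and about evenly above and below it (35 of 77 above), and Mrps22 stands alone at the bottom.

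Between CD8 and CD4 cells, a few members differed in the same direction under several treatments. Without treatment 6 members passed (7.79%, against 17.2% of the 13476 genes tested), of which Mrpl4 and Mrps7 were higher in CD8 cells and Mrps34, Mrpl33, Mrpl14 and Mrpl52 lower. Under RUX 5 passed (6.49%, against 17.9%), with Mrpl4 higher and Mrps34, Mrpl52, Mrpl14 and Mrpl45 lower in CD8. Of the 6 and the 5 genes, 4 were shared, namely Mrpl4, Mrps34, Mrpl14 and Mrpl52, from groups that have no library in common. Mrpl4, of a bacterial family, stood at 112, 103 and 125 CPM in untreated CD8 pools and at 82.2, 88.2 and 90.1 CPM in untreated CD4 pools, with no overlap, a log2 fold change of 0.38 ± 0.09 and an adjusted p of 0.00545. Under RUX Mrpl4 had 105, 115 and 118 against 97.1, 95.5 and 87.3 CPM (0.27 ± 0.09, adjusted p 0.0431), and under CSA 110, 100 and 132 against 91.3, 93.7 and 94.9 CPM (0.29 ± 0.09, adjusted p 0.0221). Under RUX+CSA Mrpl4 still had no overlap, at 115, 114 and 118 against 104, 99.3 and 96.0 CPM, but did not pass.

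Mrps34, a small subunit protein found only in mitochondrial ribosomes, was the member most often lower in CD8. It stood at 25.1, 24.3 and 22.3 CPM in untreated CD8 pools and at 29.6, 33.2 and 32.5 CPM in untreated CD4 pools, a log2 fold change of −0.41 ± 0.11 (adjusted p 0.0155). Under RUX the values were 30.2, 27.7 and 23.9 against 42.4, 36.1 and 32.0 CPM (−0.44 ± 0.11, adjusted p 0.00994), and under RUX+CSA 29.1, 31.2 and 26.4 against 36.2, 39.6 and 35 CPM (−0.36 ± 0.11, adjusted p 0.0226), with no overlap in any of the 3. Under CSA it did not pass, at 27.4, 28.1 and 30.1 against 36.5, 33.9 and 33.1 CPM. Mrpl14, whose bacterial counterpart lies at the face between the subunits, had 18.7, 15.1 and 14.6 against 21.1, 23.3 and 27.2 CPM without treatment (−0.56 ± 0.18, adjusted p 0.0356) and 14.0, 18.3 and 19.8 against 29.9, 28.1 and 21.6 CPM under RUX (−0.61 ± 0.18, adjusted p 0.0225). Mrpl45, which anchors the human mitochondrial ribosome to the inner membrane, was lower in CD8 under RUX (−0.44 ± 0.14, adjusted p 0.0297). The untreated count of 6 fell to 3 without CD8 pool 2, to 0 without CD8 pool 3, to 1 without CD4 pool 14 and to 3 without CD4 pool 15, and the RUX count of 5 fell to 3 without CD8 pool 7 or 9 and to 0 without CD4 pool 19. Without CD4 pool 20 the RUX count was 4, but Mrpl4, Mrpl14 and Mrpl45 were no longer among them. For these and later comparisons of CD8 with CD4 cells, counts over all genes under such alternatives are not given here. Macrophage markers summed to 52.7 to 96.3 CPM in untreated CD8 against 259 to 755 CPM in untreated CD4 pools (9 of 10 lower in CD8), and to 54.3 to 72.3 against 65.6 to 160 CPM under RUX (4 of 10 lower, 1 higher). Neutrophil markers summed to 12.9 to 1560 against 97.0 to 9160 CPM and to 1840 to 3250 against 4150 to 8080 CPM in the same comparisons.

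Under RUX+CSA the balance between the cell types leaned the other way, although no member's difference of RUX+CSA effects between the cell types passed. Of 77 members, 14 were higher and 1 lower in CD8 than in CD4 cells (19.5%, against 27.8% of 13476 genes), the median log2 fold change was 0.16 against −0.06 without treatment, and 64 members lay above 0 against 32. Over all genes that passed there, 1990 were higher and 1750 lower in CD8. Of the 15 members, 9 were of the large and 6 of the small subunit. This tilt was not particular to the members. In the same comparison, respiratory chain subunits had 12 of 79 higher in CD8, 0 lower and a median of 0.13. Cytosolic ribosomal proteins had 14 of 83 higher, 0 lower and a median of 0.19. Mrpl49, a large subunit protein without a bacterial counterpart, had 45.8, 42.3 and 37.8 CPM in CD8 and 34.5, 22.5 and 25.8 CPM in CD4 pools, with no overlap, a log2 fold change of 0.60 ± 0.13 and an adjusted p of 0.00193. Mrpl30, of a bacterial family, had 52.0, 46.1 and 41.0 against 31.4, 31.5 and 35.2 CPM (0.50 ± 0.12, adjusted p 0.00302). Mrpl12, the stalk protein that also binds the mitochondrial RNA polymerase in human cells, had 76.7, 65.5 and 60.7 against 44.7, 51.6 and 44.9 CPM (0.52 ± 0.13, adjusted p 0.00472). These 3 genes, Mrpl18 (0.49 ± 0.13, adjusted p 0.00746) and Mrpl47 (0.66 ± 0.17, adjusted p 0.00747) kept their calls when any 1 pool of the comparison was left out, with adjusted p of at most 0.0455.

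The other members higher in CD8 under RUX+CSA were Mrps36, Mrpl3, Mrps7, Mrps10, Mrpl42, Mrps22, Mrpl10 and, beyond the 12 with the smallest p, Mrps18b and Mrpl20, and Mrps34 was the member that was lower. Mrps36 had 24.1, 20.5 and 16.8 CPM in CD8 and 15.1, 14.0 and 12.1 CPM in CD4 pools (0.57 ± 0.16, adjusted p 0.0125). Mrpl10, the base of the stalk that Mrpl12 forms, had 81.9, 82.3 and 74.8 against 70.7, 64.3 and 58.8 CPM (0.30 ± 0.11, adjusted p 0.0394). Mrps22 entered through its low level in CD4, with 18.6, 16.1 and 17.6 against 13.4, 12.3 and 14.0 CPM (0.40 ± 0.14, adjusted p 0.038), and it lost the call without any 1 of the 6 pools. Of the 15 members, 2 (Mrpl20 and Mrps18b) were also among the 10 that rose in CD8 under RUX+CSA, and these comparisons share the CD8 RUX+CSA pools. The count of 15 fell to 6 without CD8 pool 10, to 7 without CD8 pool 11 and to 8 without CD4 pool 24.

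Under CSA 7 members were higher in CD8 than in CD4 cells and none lower (9.09%, against 26.3% of 13476 genes), with a median of 0.12 and 60 of 77 above 0. Those with the smallest p were Mrps27 (0.43 ± 0.13, adjusted p 0.0176), Mrpl12 (0.42 ± 0.13, adjusted p 0.0189), Mrpl4, Mrps10 (0.45 ± 0.14, adjusted p 0.0222) and Mrps36 (0.49 ± 0.16, adjusted p 0.0291). Mrpl12 had 60.1, 54.7 and 74.9 CPM in CD8 and 52.5, 44.0 and 45.0 CPM in CD4 pools, and pool 6 was the highest. In the same comparison, 64 of 79 respiratory chain subunits lay above 0 (median 0.13), as did 57 of 83 cytosolic ribosomal proteins (median 0.08). Of the 7, Mrpl12, Mrps10 and Mrps36 were shared with the 15 under RUX+CSA. All 7 were lost without CD8 CSA pool 6, and the count was 3 without CD4 pool 16, 1 without pool 17 and 3 without pool 18. Neutrophil markers summed to 911 to 3580 CPM in CD8 CSA and to 3710 to 18100 CPM in CD4 CSA pools, and to 4590 to 6160 against 8710 to 10800 CPM under RUX+CSA. Their part in the differences between the cell types was not tested, and with the marker mean as a covariate the counts were 4 without treatment, 7 under CSA, 5 under RUX and 14 under RUX+CSA.

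**Figure D5:**
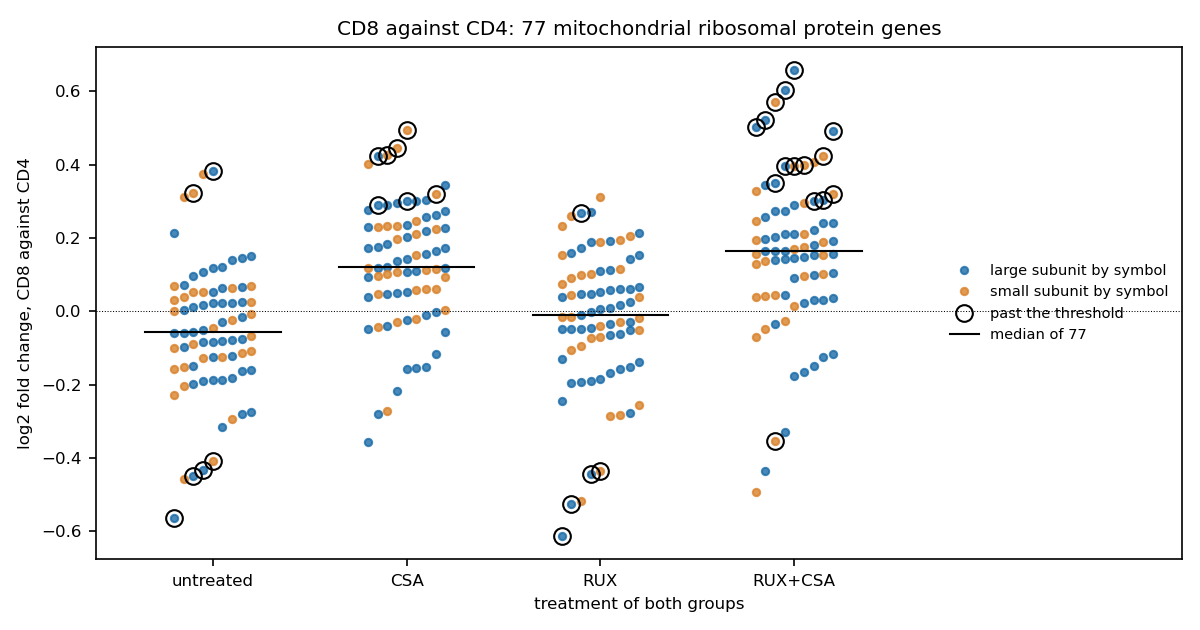
Log2 fold change of CD8 against CD4 cells for the 77 members under each treatment, coloured by subunit, with a line at the median and a ring around members past the threshold (6, 7, 5 and 15 members). The median is −0.06 without treatment, 0.12 under CSA, −0.01 under RUX and 0.16 under RUX+CSA.

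Over the 15 comparisons, 30 of the 77 members (39%) passed at least once and 47 never did, against 52.3% of the 12484 genes tested in all 15. Mrps34 passed in 3 comparisons of CD8 with CD4 cells, always lower in CD8, and Mrpl4 in 3, always higher. Of the 10 members that rose in CD8 cells under RUX+CSA, 8 had a promoter window and 5 of these held an NRF1, ETS or YY1 motif, and of the 15 that differed between CD8 and CD4 under RUX+CSA, 14 had a window and 6 held one. Counted by window, 26 of 74 over all members (35.1%) and 14.55% over tested genes held one. A link between motif and call was not tested.

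Around the ribosome itself, few genes of mitochondrial translation passed in CD8 cells under RUX+CSA. Of 6 further subunit genes that carry other symbols, 1 rose, Aurkaip1, which encodes a small subunit protein (0.34 ± 0.10, adjusted p 0.0385), and 5 had a log2 fold change above 0. Of 25 genes of mitochondrial ribosome assembly, 0 passed edgeR's test and the median was 0.03. Of 15 translation factors, Guf1, a mitochondrial elongation factor of the translational GTPase family, fell (−0.39 ± 0.09, adjusted p 0.0183), and the median was 0.05. Of 20 mitochondrial tRNA synthetases and tRNA amidation genes, Gatc fell (−0.34 ± 0.11, adjusted p 0.0486), and of 12 genes that copy or transcribe the mitochondrial genome, Mgme1, a nuclease of mitochondrial DNA, fell (−0.38 ± 0.11, adjusted p 0.0429), with medians of −0.05 and −0.12. Of the regulators of mitochondrial genes, 0 of 9 passed. Respiratory chain subunits had 12 of 78 higher (15.4%, against 15.7% of all genes), 0 lower and a median of 0.21, and cytosolic ribosomal proteins had 3 of 83 higher, 0 lower and a median of 0.13.

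Between CD8 and CD4 cells, several regulators of mitochondrial genes differed. Of 9 tested, 4 were higher in CD8 without treatment, 5 under CSA, 2 under RUX and 4 under RUX+CSA, and 1 was lower, Gabpb1 under RUX. The shares past the threshold were 44.4%, 55.6%, 33.3% and 44.4%, against 17.2%, 26.3%, 17.9% and 27.8% of all genes. Myc, a factor that drives growth and ribosome genes, was higher in CD8 under each treatment, by 1.12 ± 0.12 on the log2 scale without treatment (adjusted p 1.69e-06) and by 1.60 ± 0.12 under RUX+CSA (adjusted p 1.14e-08). Gabpa, the DNA-binding part of GABP, was higher by 0.37 ± 0.11 and 0.43 ± 0.11 in the same comparisons (adjusted p 0.0286 and 0.00696), and the gene Nrf1 by 0.36 ± 0.09 under RUX+CSA (adjusted p 0.00362). Of the 15 translation factors, Lrpprc, which stabilises mitochondrial messenger RNAs, was higher in CD8 by 0.47 ± 0.11 without treatment and 0.71 ± 0.11 under RUX+CSA (adjusted p 0.00537 and 7.93e-05), and Gfm1, a mitochondrial elongation factor, by 0.42 ± 0.11 under RUX+CSA (adjusted p 0.00601). Assembly genes went both ways under RUX+CSA, with 2 higher, among them Noa1 (0.51 ± 0.11, adjusted p 0.00156), and 4 lower, among them Mtg2 (−0.41 ± 0.09, adjusted p 0.00182), both GTPases of ribosome assembly. Under RUX+CSA 24.0% of the assembly genes and 13.3% of the translation factors passed, neither above the 27.8% of all genes.

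In CD4 cells, 1 assembly gene passed in both comparisons with untreated cells that involve CSA. Ddx28, a helicase of large subunit assembly, was higher by 0.81 ± 0.16 under RUX+CSA (adjusted p 0.0188) and by 0.82 ± 0.16 under CSA (adjusted p 0.0188), and these comparisons share their untreated pools. It was the only 1 of the 25 assembly genes past the threshold in either. That is 4.00% of them, against 1.77% of all genes under RUX+CSA and 1.48% under CSA.

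Some divergent neighbours passed with their member and others did not. In CD8 cells under RUX+CSA, the neighbours of the 4 members called there that have one gave log2 fold changes of −0.17 ± 0.12 for Peo1 beside Mrpl43 (0.38), −0.19 ± 0.11 for Ppp1r10 beside Mrps18b (0.41), −0.31 ± 0.22 for Ska3 beside Mrpl57 (0.39) and −0.29 ± 0.14 for 2610507I01Rik beside Mrpl55 (0.35), none past the threshold. Between CD8 and CD4 under RUX+CSA, where 27.8% of all genes passed, Tcp1 was higher in CD8 (0.47 ± 0.13, adjusted p 0.00876) as Mrpl18 was (0.49). Tcp1, a subunit of a cytosolic chaperonin, lies 238 bases from Mrpl18. Fau beside Mrpl49 (−0.04 ± 0.12), Ndufb5 beside Mrpl47 (0.17 ± 0.11) and Mitd1 beside Mrpl30 (0.24 ± 0.11) did not pass in that comparison. Of the 15 members, 8 have a divergent neighbour, and Gga3 beside Mrps7 (−0.07 ± 0.13), Eme2 beside Mrps34 (−0.21 ± 0.20) and Ppp1r10 beside Mrps18b (−0.01 ± 0.12) did not pass either, while Lrrc46 beside Mrpl10 was not among the genes tested. Under CSA, Ptcd2 beside Mrps27 (0.30 ± 0.09, adjusted p 0.0182) and Hira beside Mrpl40 (0.81 ± 0.17, adjusted p 0.00203) were higher in CD8 as were the members. Of all genes, 26.3% passed between the cell types under CSA. Neighbours in the comparisons of CD8 with CD4 cells without treatment and under RUX are not reported here. The counts were made without strand, so pairs from overlapping neighbours, such as 6430562O15Rik over 17.0% of the exon bases of Mrps27, cannot be told apart from the member's own where they fall on shared bases.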

How the data were processed

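The authors deposited 1 table of raw counts, whole numbers of read pairs per gene for 24 libraries made with a SMART-Seq mRNA kit, per the labels' protocols. Per the file headers, featureCounts 2.0.3 counted pairs over exons by gene without a strand option; STAR and mm10 are named in the submitters' processing notes. Starting there, TMM factors were computed with edgeR 4.0.16 (R 4.3.3), which also removed low counts with filterByExpr and ran robust quasi-likelihood F tests on group means, with 12 libraries of 1 cell type in a fit (12684 genes in CD8, 13175 in CD4) and all 24 across cell types (13476 genes). All 77 members passed each filter. Adjusted p-values are two-sided Benjamini-Hochberg values over all genes tested, threshold 0.05, from edgeR unless another tool is named; DESeq2 1.42.0 and limma 3.58.1 were alternatives. The procedure was tested on simulated data, in which the planted changes were larger than those of the members called here. That test therefore does not show how well changes as small as the members' are found. Levels are CPM of TMM-scaled totals, and marker sums likewise; per length, CPM was divided by the exon bases in kb that the file gives. CD8 pools are numbered 1 to 12 and CD4 pools 13 to 24, so libraries were fitted unpaired; whether CD8 and CD4 pools came from the same mice is not stated in the labels.

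The members and lists were chosen with earlier results of these data known. Named were up to 12 members past the threshold in each direction, smallest p first, for CD8 RUX+CSA against untreated and for CD8 against CD4 untreated and under RUX+CSA; up to 5 each way elsewhere, or the 3 with the smallest p where none passed; the 5 highest and 5 lowest per length; Mrpl12, Mrps18a, Mrps18b, Mrps18c, Mrps30 and Mrps36; and up to 2 called genes of each other list. Neighbours, and members named for a range, were chosen after values were seen. The alternatives were another normalization, no filter, DESeq2, voom, a marker covariate, each pool left out, and CD8 CSA pool 6 and CD8 RUX pool 7 left out together.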

Additional observations from a re-analysis of the deposited data

How the results depend on the processing

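Counts of members past the threshold moved with single pools and with some methods. In CD8 cells under RUX+CSA against untreated, the count of 10 became 16 with DESeq2, 5 with voom, 0 with the marker covariate, 19 without CSA pool 6 and RUX pool 7, and 0 to 17 with 1 pool left out; the count over all genes, 1988, became 0 with the covariate, 3893 without pools 6 and 7 and 426 to 1807 with 1 pool left out. In CD8 cells against RUX, 0 became 1 with DESeq2 and 1 without pools 6 and 7. In CD4 cells under RUX+CSA, 1 became 0 with no filter, 0 with the covariate and 0 to 1 with 1 pool left out. Between CD8 and CD4 cells, leaving out 1 pool gave 0 to 7 without treatment, 0 to 5 under CSA, 0 to 4 under RUX and 6 to 13 under RUX+CSA; under CSA the count was 4 with no filter and 0 without pools 6 and 7, and under RUX 3 without them. In the other 8 comparisons the count was 0 under every alternative run. For CD8 against CD4 cells, counts over all genes under these alternatives are not given here. A loss of calls particular to the members therefore cannot be told from a general one. No named member changed direction in 809 alternatives, of which 164 lost a call and 2 gained one. The 809 include members named for the smallest p where none passed, which had no call to lose. The share of calls lost is therefore larger than 164 of 809. Medians and levels under another normalization or structural subunits moved by less than 0.1 log2 or 1 SD (62 of 62). Several medians were themselves smaller than 0.1 log2, so this does not show that they kept their sign. Why the counts moved was not tested. No paired analysis was possible because the labels give each library a pool number of its own and do not say whether CD8 and CD4 libraries came from the same mice. With 3 pools a group, small changes of single members may be missed.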
